A study of Trametes versicolor with 3 samples.

Results

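The genes described here are those that Trametes versicolor, a white-rot fungus of dead hardwood, is annotated to use for taking up amino acids, ammonium, urea and short peptides. Gene models were included when their best protein database description or their first KEGG (pathway database) entry named an amino acid transporter or permease, an ammonium, urea or nitrate transporter, or an oligopeptide transporter. The rule used text alone and no measured value. It found 48 of 11480 gene models: 29 amino acid, 16 oligopeptide, 2 ammonium and 1 urea member, and 0 for nitrate. The description alone brought in 29 members, the KEGG entry alone 8, and both 11. The amino acid members are named transporters or permeases in all but 9 cases. Those exceptions are the 8 members described only as hypothetical proteins, which entered through KEGG, and Trave1_29468, described as the Shr3 amino acid permease chaperone, which is not itself a transporter.

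Mycelium of the strain listed as CICC 14001 had been grown for 9 days on 1 of 3 media, PDA (most often short for potato dextrose agar), a medium with glucose as carbon source, or a poplar medium, until the mat reached 4 cm. The growth protocol gives PDA and 25 °C for every sample, against the source names, which were used for the groups. Each medium had 1 RNA library, so no difference has a replicate check, no p-value is given, and every comparison is between these libraries. Nothing in the labels says how the nitrogen supply of the 3 media differed.

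The libraries held 2.85 M reads for PDA, 2.68 M for glucose and 2.80 M for poplar. Levels are RPKM, read counts divided by the length of the model and by the library total, so they can be compared between genes. A single read, 1 count on 1 kb of model, equalled 0.351 RPKM for PDA, 0.373 for glucose and 0.357 for poplar. Folds are RPKM ratios, followed in brackets by an exact 95% interval for counting error alone. A gene was called when RPKM plus 1 differed at least 2-fold and RPKM was 1 or more in either library. Of 25 gene models matched by names of reference genes, 1 was called in any comparison, where 30.1% of all gene models were. It was lower on glucose than on PDA. This gene, Trave1_45864, is described as an actin cytoskeleton organization protein, so the match was not limited to reference genes. The median log2 ratio of the 25 was 0.20 for poplar against glucose, −0.06 for poplar against PDA and −0.10 for glucose against PDA. Over all gene models it was 0.08, 0.09 and 0.01. Actin 1 (Trave1_18987) measured 2068 RPKM on PDA, 2071 on glucose and 2155 on poplar, and chitin synthase 2 (Trave1_158352) 929, 924 and 1158. A list of 12 fruiting, mating and lectin genes summed to 1226, 1316 and 1350 RPKM in the same order. Its gene of highest level differed by library. On PDA it was an aegerolysin, at 508, 236 and 152 RPKM in that order. On glucose it was a concanavalin A-like lectin/glucanase (Trave1_50448), at 74.5, 485 and 198 RPKM. On poplar it was the pheromone Trave1_45033, at 112, 128 and 544 RPKM. Of the 12, 8 were called for poplar against glucose (16.4% of all gene models were), 10 for poplar against PDA (15.9%) and 4 for glucose against PDA (19.2%). Its part in the differences below was not tested. Of the host plant list only 1 gene model was found, ribulose-5-phosphate 3-epimerase, an enzyme that fungi also have. Reads were counted on Trametes gene models alone, so this list cannot show whether plant RNA was present.

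Wood holds little nitrogen, and wood-decay fungi obtain it from ammonium, amino acids and the peptides that secreted proteases release. Amino acid permeases of the plasma membrane carry free amino acids with protons. Peptides enter by separate families: POT (PTR) transporters carry the shortest peptides, and OPT transporters carry somewhat longer ones and, in some fungi and plants, glutathione or metal chelates. Amt transporters carry ammonium, which is then fixed by glutamine synthetase and glutamate dehydrogenase. In Saccharomyces cerevisiae many of these genes are repressed while a rich nitrogen source is present. The substrates of the Trametes proteins are known here only from names. Although the counts are of uniquely assigned reads, paralogs with near-identical stretches may have lost or exchanged reads there. No source says whether strand was used in counting.

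All 48 members had reads in every library. Together they took 0.453% of the reads in the PDA library (95% exact binomial interval 0.445 to 0.461), 0.581% in the glucose library (0.572 to 0.590) and 0.519% in the poplar library (0.510 to 0.527). The glucose library was thus highest, 1.28-fold above PDA (1.25 to 1.31), and poplar lay between. In these bulk samples less RNA per cell and fewer cells with the transcript cannot be told apart. Most of the excess lay in the oligopeptide transporters, which took 0.250% of reads on PDA, 0.358% on glucose and 0.301% on poplar. The amino acid members took 0.167%, 0.196% and 0.193%, with a poplar to glucose ratio of 0.986 (0.949 to 1.02). The ammonium pair went the other way, with 0.0349% on PDA, 0.0268% on glucose and 0.0238% on poplar.

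**Figure D1:**
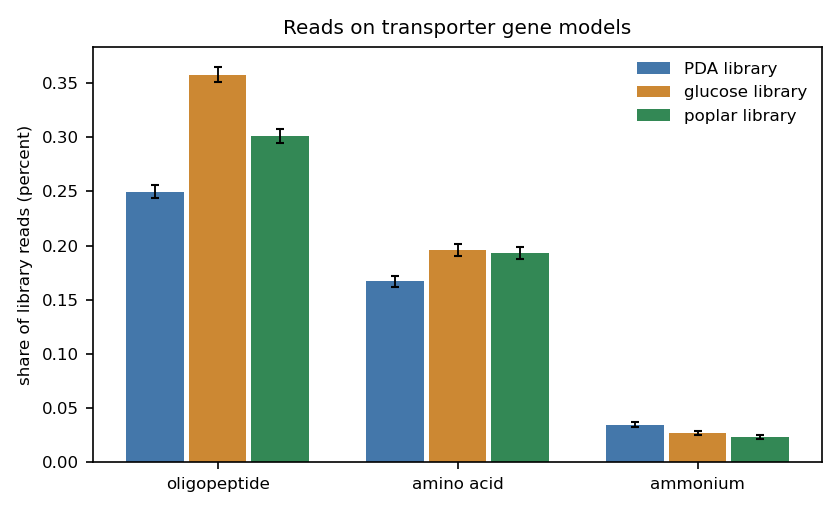
Share of each library's reads, in percent, on oligopeptide, amino acid and ammonium transporter gene models. Bars start at 0 and are 1 library each, and error bars are 95% exact binomial intervals. The glucose bar is highest for oligopeptide transporters at 0.358%, and the PDA bar is highest for ammonium transporters at 0.0349%.

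Of the 48 members, 47 reached 1 RPKM in every comparison, the exception being the amino acid permease Trave1_141653 with 1 to 3 reads per library. Between poplar and glucose 3 were higher (8.1% of all gene models were) and 4 lower (8.31% of all), with a median log2 ratio of 0.05 against 0.08 over all gene models. That median changed sign under 3 of 6 alternatives, the lowest value being −0.08. Between poplar and PDA 6 were higher (10.8% of all) and 0 lower (5.11% of all), with a median of 0.22 against 0.09. Between glucose and PDA 8 were higher (12.7% of all) and 2 lower (6.52% of all), with a median of 0.23 against 0.01. Every one of these calls also had an interval without 1. With that added condition the shares of all gene models were 5.51% higher and 6.13% lower for poplar against glucose, 7.82% and 3.51% for poplar against PDA, and 9.74% and 4.73% for glucose against PDA. The highest level was on PDA for 10 members (30.3% of all gene models), on glucose for 20 (32.1%) and on poplar for 17 (37.6%). Across the 3 comparisons 14 members were called at least once, 29.8% of those measured, close to the 30.1% of all gene models. Where a level of 10 RPKM in some library was also required, the count was 14 of 40 members, against 26.1% of all gene models, so the reading depends on how low genes are treated.

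The calls were unevenly spread over the roles. Of the 16 oligopeptide transporters 9 were called in some comparison, 56.25%, where 30.1% of all gene models were. Of the 29 amino acid members, 28 of them measured, only 4 were called. Depth can set such a count, so genes with at least 100 reads in every library were also compared. Of these, 7 of 24 members differed at least 2-fold between their highest and lowest library, against 15.9% of 3584 gene models. They included 6 of 12 oligopeptide transporters and 0 of 10 amino acid members. These are counts without a test.

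The oligopeptide transporters did not move together, and each medium had members at their highest level there. The PDA library was above both others, with each interval excluding 1, for 2 of the 16, the glucose library for 7 and the poplar library for 5. For all gene models these shares were 9.28%, 10.7% and 9.03%. PDA was below both others for 8 of the 16 (11.4% of all gene models), glucose for 3 (9.44%) and poplar for 5 (4.42%). Genes with more reads have narrower intervals, and these shares were not matched for depth. The median level of the 16 was 62.2 RPKM on PDA, 82.6 on glucose and 59.3 on poplar. Over all gene models it was 14.0, 14.4 and 15.4 RPKM, so part of the gap in these shares can come from depth. Of the 16, 14 have no KEGG entry and are called OPT members here. Among them Trave1_58261 and Trave1_153470 are described only as oligopeptide transporters, and Trave1_155969 and Trave1_73999 only as small oligopeptide transporters. The 14 have coding lengths of 2022 to 2442 bases, and the 2 with a POT family entry are 1779 and 1788 bases long.

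**Figure D2:**
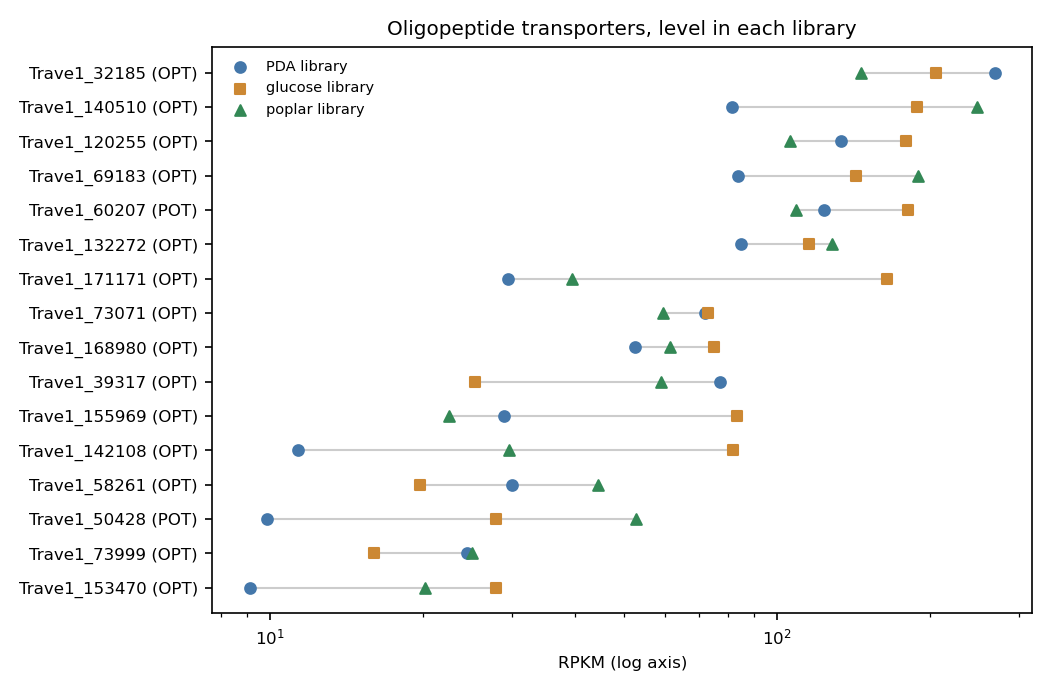
Level of the 16 oligopeptide transporters in RPKM on a log axis, 1 point per library, ordered by mean level, with the family in brackets. A grey line joins the lowest and highest library. Trave1_171171 and Trave1_142108 have the widest lines, with glucose at the right end at 165 and 81.9 RPKM.

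The most abundant, OPT member Trave1_32185, measured 268 RPKM on PDA, 205 on glucose and 146 on poplar. It was lower on poplar than on PDA by 1.83-fold (1.69 to 1.98), short of a call, and each step in this order exceeded counting error. It supplied 27.2% of the summed OPT level on PDA but 14.7% on glucose and 12.4% on poplar. Without it the remaining 13 OPT members took 1.67-fold more reads on glucose than on PDA (1.61 to 1.73) and 1.46-fold more on poplar than on PDA (1.40 to 1.51). By level it ranked 2 of 48 on PDA, 3 on glucose and 7 on poplar.

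Trave1_140510, another OPT member, showed the opposite order, with 81.3 RPKM on PDA, 188 on glucose and 248 on poplar. It was 3.05-fold higher on poplar than on PDA (2.77 to 3.36) and 2.32-fold higher on glucose than on PDA (2.09 to 2.56). On poplar it was the highest of the 16. Trave1_69183 followed the same order, at 83.6, 143 and 189 RPKM, and was 2.26-fold higher on poplar than on PDA (2.04 to 2.50). Together the pair made up 16.7% of the summed OPT level on PDA, 23.7% on glucose and 37.1% on poplar. Both were also above their glucose level on poplar, by 1.32-fold with intervals that exclude 1.

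A group of 3 OPT members stood out in the glucose library. Trave1_171171 measured 29.5 RPKM on PDA, 165 on glucose and 39.4 on poplar. It was 5.59-fold higher on glucose than on PDA (4.79 to 6.56) and 4.19-fold lower on poplar than on glucose (3.64 to 4.82). For Trave1_142108 the levels were 11.4, 81.9 and 29.6 RPKM, 7.19-fold higher on glucose than on PDA (5.59 to 9.38), the largest ratio of any member in the 3 comparisons. It was also called on poplar against PDA, at 2.60-fold (1.96 to 3.48). Trave1_155969, described as a small oligopeptide transporter, measured 29.0, 83.2 and 22.5 RPKM and was 3.70-fold lower on poplar than on glucose (3.07 to 4.48). All 3 had glucose well above both other media, and they differed in whether poplar lay above PDA or, for Trave1_155969, below it.

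The reverse pattern, lowest on glucose, was seen for another 3 OPT members. Trave1_39317 measured 77.2 RPKM on PDA, 25.4 on glucose and 59.1 on poplar, 3.04-fold lower on glucose than on PDA (2.54 to 3.67) and 2.33-fold higher on poplar than on glucose (1.92 to 2.82). Trave1_58261 measured 29.97, 19.8 and 44.3 RPKM and was 2.24-fold higher on poplar than on glucose (1.81 to 2.78). The other small oligopeptide transporter, Trave1_73999, measured 24.5, 16.0 and 25.1 RPKM, a difference short of 2-fold. The 2 genes that share the name small oligopeptide transporter thus had opposite orders of glucose and PDA.

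Trave1_153470, the OPT member of lowest mean level, measured 9.13 RPKM on PDA, 28.0 on glucose and 20.2 on poplar. It was 3.06-fold higher on glucose (2.25 to 4.22) and 2.22-fold higher on poplar (1.61 to 3.09), both against PDA, and the call on poplar was lost under median-of-ratios scaling and with a pseudocount of 5 RPKM. The other 4 OPT members were called in no comparison. Among them Trave1_120255 measured 133, 179 and 106 RPKM and Trave1_132272 85.0, 115 and 128, while Trave1_168980 and Trave1_73071 stayed between 52.4 and 75.0 RPKM. Trave1_73071 had the least spread of the 16, with a highest to lowest ratio of 1.23.

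The POT members shifted in relation to each other. Trave1_60207 measured 124 RPKM on PDA, 181 on glucose and 109 on poplar and reached no call. Trave1_50428 measured 9.86, 27.9 and 52.8 RPKM, 5.36-fold higher on poplar than on PDA (3.95 to 7.40) and 2.83-fold higher on glucose than on PDA (2.03 to 4.00). It was also above its glucose level on poplar by 1.89-fold (1.53 to 2.35). As a result Trave1_60207 supplied 92.6% of the pair's summed level on PDA, 86.6% on glucose and 67.3% on poplar.

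The ammonium transporters also moved apart. Trave1_152715 measured 205 RPKM on PDA, 117 on glucose and 120 on poplar. It was 1.76-fold lower on glucose than on PDA (1.57 to 1.97) and 1.70-fold lower on poplar than on PDA (1.52 to 1.90), both short of a call, and its glucose and poplar levels did not differ beyond counting error. Trave1_62604 measured 26.3, 58.8 and 36.3 RPKM and was 2.24-fold higher on glucose than on PDA (1.79 to 2.81). Trave1_152715 remained the more abundant in every library, with 88.6% of the pair's level on PDA, 66.5% on glucose and 76.9% on poplar. The urea transporter Trave1_73817 was low throughout, at 7.02 RPKM on PDA, 3.64 on glucose and 5.05 on poplar, from 41, 20 and 29 reads. Its only interval that excluded 1 was glucose against PDA, 1.93-fold lower (1.10 to 3.47), which is short of a call.

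The amino acid members covered a wider range of levels but differed less between media. The Shr3 chaperone Trave1_29468, whose yeast counterpart helps amino acid permeases leave the endoplasmic reticulum, was the most abundant of all 48 members in each library, at 365 RPKM on PDA, 326 on glucose and 433 on poplar. Poplar exceeded glucose by 1.33-fold (1.18 to 1.49). It made up 23.5% to 29.97% of the summed level of the amino acid members. Without it the poplar to glucose ratio of their reads was 0.951 (0.913 to 0.990).

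Of the 29, 11 had the KEGG entry for the AAT family, the classical fungal amino acid permeases. The dicarboxylic amino acid permease Trave1_120443, named for a yeast permease that takes up glutamate and aspartate, measured 168 RPKM on PDA, 264 on glucose and 197 on poplar. General amino acid permease 1, Trave1_20403, whose yeast namesake accepts a broad range of amino acids, measured 114, 188 and 164 RPKM. Both had the order PDA, poplar, glucose from low to high, with intervals between neighbours that exclude 1. The amino acid permease Trave1_140131 measured 106, 119 and 155 RPKM, highest on poplar, while its PDA and glucose levels did not differ beyond counting error. These 3 genes made up 83.0% of the AAT level on PDA, 88.6% on glucose and 87.4% on poplar, and none was called.

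A single AAT member was called, Trave1_172628, with 26.9 RPKM on PDA, 12.0 on glucose and 17.6 on poplar. It was 2.24-fold lower on glucose than on PDA (1.62 to 3.14), on 54 against 129 reads. The others ranged from 0.236 RPKM for Trave1_141653 on poplar to 23.0 RPKM for Trave1_117643 on poplar. Trave1_75612, described as hypothetical, measured 5.72, 10.1 and 5.11 RPKM, with glucose above poplar by a ratio just short of 2-fold. Trave1_75613, also hypothetical, measured 4.53, 7.14 and 4.44 RPKM in the same order, but with intervals that include 1.

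A further 9 members are described as amino acid transporters or APC amino acid permeases, APC being the superfamily of most fungal amino acid permeases, although their first KEGG entry in the files is an aquaporin-related protein. The most abundant of these, Trave1_59904, measured 71.0 RPKM on PDA, 83.2 on glucose and 67.2 on poplar. Trave1_61012 measured 8.72, 17.6 and 24.1 RPKM and was 2.77-fold higher on poplar than on PDA (1.90 to 4.10). Trave1_162398 measured 3.43, 10.7 and 4.14 RPKM, 3.13-fold higher on glucose than on PDA (1.74 to 5.91) and 2.59-fold lower on poplar than on glucose (1.49 to 4.67). Both calls were lost with a pseudocount of 5 RPKM. The PDA and poplar levels of Trave1_162398, from 16 and 19 reads, did not differ beyond counting error. The other 6 were called in no comparison, and the steadiest of them, Trave1_30279, measured 13.7, 14.2 and 15.0 RPKM.

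Among 3 permeases described as vacuolar, MFS (major facilitator superfamily) or ScVBA-like, whose first KEGG entry is the DNA repair protein RAD50, Trave1_33585 was the one called. In yeast the VBA proteins move basic amino acids into the vacuole. Trave1_33585 measured 13.2 RPKM on PDA, 6.61 on glucose and 15.8 on poplar and was 2.39-fold higher on poplar than on glucose (1.55 to 3.78). The vacuolar amino acid permease Trave1_166439 measured 27.1, 29.7 and 32.1 RPKM, with no pair apart beyond counting error, and the MFS permease Trave1_64206 30.4, 48.1 and 39.4. The 4 members with solute carrier entries reached no call in any comparison. Of these Trave1_167931, whose KEGG entry names a sodium-coupled neutral amino acid carrier of animals, was highest, at 62.6 RPKM on PDA, 56.0 on glucose and 48.8 on poplar. The amino acid transporter without a KEGG entry, Trave1_171437, measured 77.0, 45.6 and 61.3 RPKM, lowest on glucose but short of a call.

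**Figure D3:**
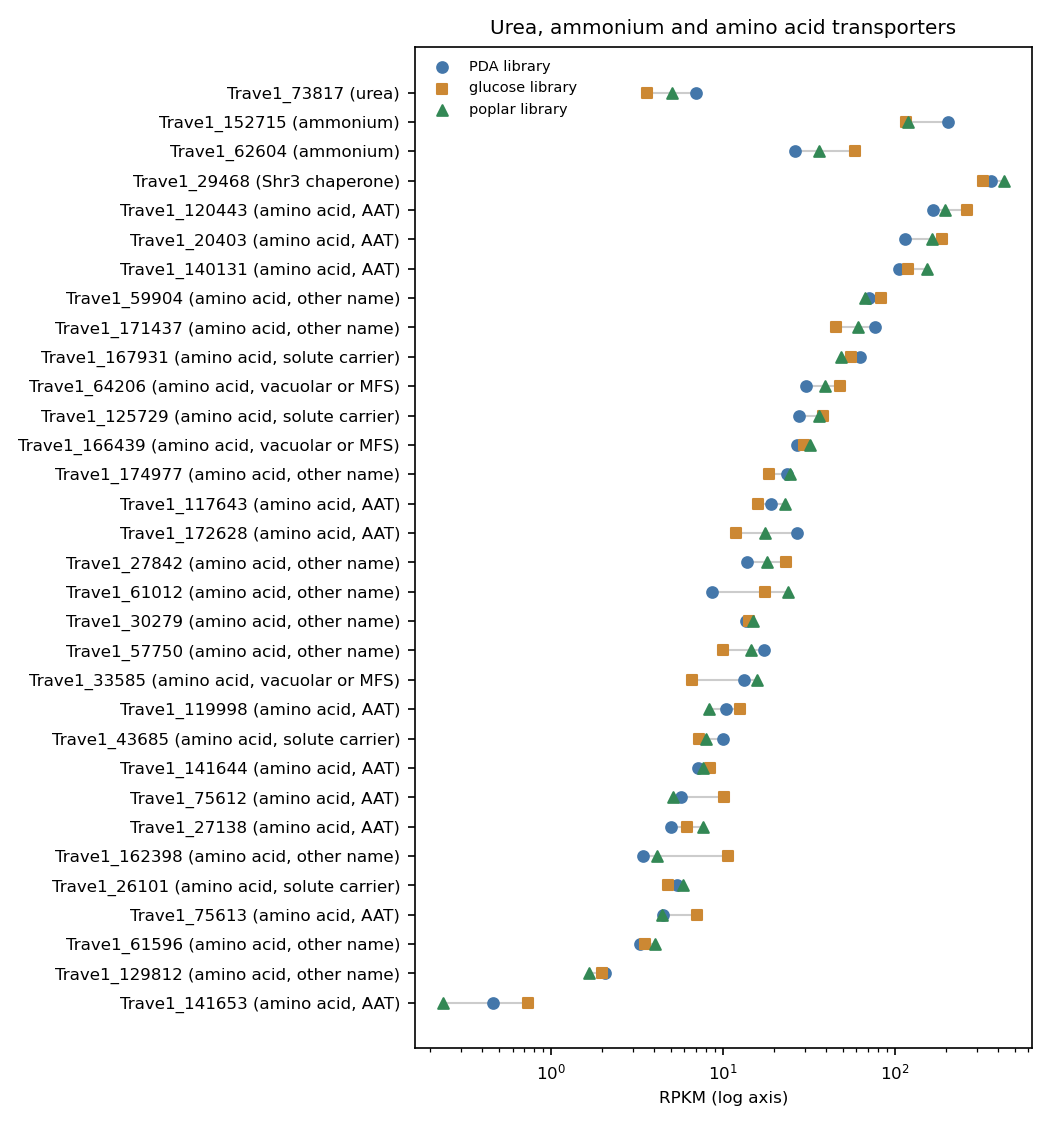
Level of the urea transporter, the 2 ammonium transporters and the 29 amino acid members in RPKM on a log axis, 1 point per library, ordered by mean level within each role. Grey lines join the lowest and highest library and are short for most amino acid members. Trave1_29468 lies at the right for each medium, at 326 to 433 RPKM.

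Side by side, the 3 comparisons picked out different subsets of the 14 called members. They share libraries in pairs, so they are not independent. Between poplar and glucose, Trave1_33585, Trave1_39317 and Trave1_58261 were higher and Trave1_142108, Trave1_155969, Trave1_162398 and Trave1_171171 lower. With a pseudocount of 5 RPKM in place of 1, Trave1_39317 was the 1 gene still called higher. Between poplar and PDA, Trave1_50428, Trave1_140510, Trave1_142108, Trave1_61012, Trave1_69183 and Trave1_153470 were higher, of which 5 are oligopeptide transporters. Between glucose and PDA, 6 oligopeptide transporters, the ammonium transporter Trave1_62604 and Trave1_162398 were higher. Trave1_39317 and Trave1_172628 were lower there, and with the pseudocount of 5 only Trave1_39317, 1 gene, was.

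**Figure D4:**
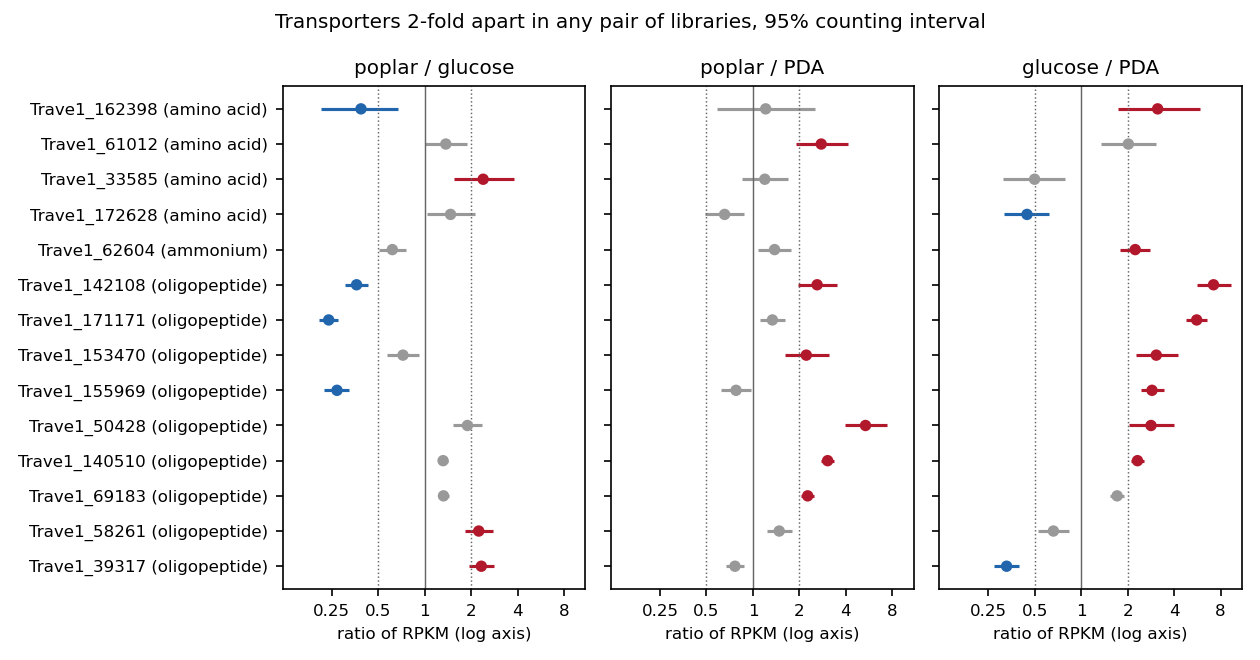
Ratio of RPKM in each pair of libraries, on a log axis, for the 14 members called in any pair, with 95% exact counting intervals as lines. Red points were called higher, blue lower and grey neither, and dotted lines mark ratios of 0.5 and 2. Trave1_142108 reaches 7.19 in the glucose to PDA panel.

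The coverage of the gene models, the percent of their length with reads, differed between members of similar depth. In the 24 members with at least 100 reads in every library it ranged from 69.5% to 99.8%. Trave1_155969 was covered to 90.6% on PDA, 99.7% on glucose and 92.7% on poplar, with 190, 513 and 145 reads. Trave1_142108, of similar length and with 70, 473 and 179 reads, was covered to 41.8%, 61.75% and 58.6%. Trave1_73071 was covered to between 75.4% and 75.5% in each library from 337 to 415 reads. Trave1_171171 was covered to 69.5% on PDA, 80.2% on glucose and 75.0% on poplar, with 192, 1009 and 252 reads. In Trave1_142108, Trave1_73071 and Trave1_171171 the reads thus lay on part of the model, and what set this was not tested. Trave1_141644 was covered to at most 24.9%, from 37 to 41 reads.

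Annotation that the rule did not use overlapped in part with the names, and whether it was assigned independently of them is not known here. Of the 16 gene models with the Gene Ontology process of amino acid transport, 15 are members, and both gene models with ammonium transport are. A process that mentions transport was listed for 23 of the 29 amino acid members and 7 of the 16 oligopeptide transporters, and 13 of the 48 had no term at all.

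Enzymes of nitrogen metabolism, peptidases, nitrogen regulators and other peptide transporters were described from 7 further lists matched on descriptions. Glutamine synthetase (Trave1_116557), which fixes ammonium onto glutamate, measured 841 RPKM on PDA, 810 on glucose and 865 on poplar, within 1.07-fold of each other. NAD-specific glutamate dehydrogenase (Trave1_156423), generally the enzyme that releases ammonium from glutamate, measured 27.5, 58.1 and 55.0 RPKM and was 2.12-fold higher on glucose than on PDA (1.81 to 2.48). It was the 1 call among the 4 glutamine and glutamate enzymes, and was lost with a pseudocount of 5 RPKM. On glucose against PDA 12.7% of all gene models were higher and 6.52% lower. Nitrite reductase (Trave1_112273), which makes ammonium from nitrite, measured 71.0, 42.0 and 32.8 RPKM and was 2.17-fold lower on poplar than on PDA (1.89 to 2.49). The other member of its list of 2, a molybdopterin binding oxidoreductase, was not called. Of all gene models 5.11% were lower on poplar than on PDA.

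Of the 12 genes for breakdown of urea, arginine and nucleobases, 4 were lower and 2 higher on glucose than on PDA, where 6.52% and 12.7% of all gene models were, with a median log2 ratio of −0.28. Uricase (Trave1_156551), which oxidises urate, measured 219 RPKM on PDA, 94.3 on glucose and 144 on poplar and was 2.32-fold lower on glucose (2.00 to 2.70). Urease, Trave1_29743, which splits urea into ammonia and carbon dioxide, measured 84.3, 39.1 and 73.1 RPKM and was named after its values were seen. UreG (Trave1_166773), an accessory protein that helps load nickel into urease, measured 19.1, 4.53 and 15.2 RPKM, 4.23-fold lower on glucose than on PDA (2.10 to 9.41). Trave1_166128, whose description of arginase/deacetylase covers more than one enzyme class, measured 27.0, 6.57 and 16.5 RPKM. These are the 4 genes called lower on glucose than on PDA. The 2 that were higher on glucose are the formamidase Trave1_53882, at 3.25, 22.7 and 12.9 RPKM, and an acetamidase/formamidase. On poplar against glucose 3 of the 12 were higher and 0 lower, where 8.1% and 8.31% of all gene models were. On poplar against PDA 1 was higher and 0 lower, where 10.8% and 5.11% were.

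**Figure D5:**
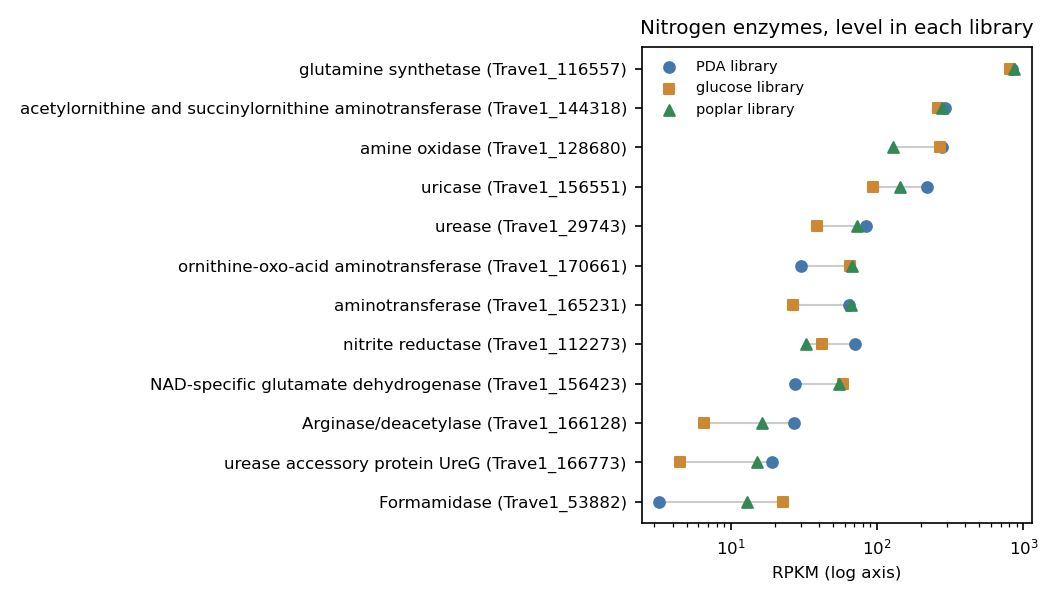
Level in RPKM on a log axis, 1 point per library, of the named enzymes of ammonium fixation, nitrite reduction, urea and nucleobase breakdown and amino acid conversion. Uricase, urease, UreG and the arginase/deacetylase have the glucose point at the left, whereas glutamine synthetase has all 3 points between 810 and 865 RPKM.

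Of 17 deaminating and transaminating enzymes 1 was higher and 1 lower in each comparison. The shares of all gene models were 8.1% higher and 8.31% lower for poplar against glucose, 10.8% and 5.11% for poplar against PDA, and 12.7% and 6.52% for glucose against PDA. Ornithine-oxo-acid aminotransferase (Trave1_170661), a step of ornithine and arginine breakdown, measured 30.1 RPKM on PDA, 64.8 on glucose and 67.7 on poplar. The aminotransferase Trave1_165231 measured 64.2, 26.7 and 66.3 RPKM, and the amine oxidase Trave1_128680 279, 268 and 129, lower on poplar than on PDA by 2.16-fold (1.95 to 2.40). The enzyme of highest level, acetylornithine and succinylornithine aminotransferase (Trave1_144318), measured 293, 262 and 279 RPKM.

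The peptidases, which supply peptides but include intracellular enzymes in this list of 183, had 14 higher and 16 lower of 176 on poplar against glucose, 14 and 11 of 172 on poplar against PDA, and 26 and 15 of 171 on glucose against PDA. As shares these are 7.95% higher and 9.09% lower on poplar against glucose, where 8.1% and 8.31% of all gene models were. On poplar against PDA they are 8.14% and 6.40%, where 10.8% and 5.11% were, and on glucose against PDA 15.2% and 8.77%, where 12.7% and 6.52% were. The metalloprotease Trave1_164315 measured 6.88 RPKM on PDA, 73.2 on glucose and 222 on poplar. The subtilisin-like protein Trave1_153777 measured 22.3, 198 and 193 RPKM, and the acid protease of highest mean level, Trave1_162628, 1708, 1024 and 1586. For the aspartic proteinase precursor Trave1_37643 the levels were 5.65, 43.9 and 0.863 RPKM, from 20, 146 and only 3 reads. The list of nitrogen regulators held 2 genes of the nmrA family, a name shared with a nitrogen repressor of other fungi, of which Trave1_30268 measured 9.96, 8.13 and 9.47 RPKM and the other had at most 1 read. No gene model matched the list of other peptide transporters.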

How the data were processed

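For each library the authors deposited uniquely assigned read counts per gene model, RPKM and coverage. The deposited counts sum to the total in each file header. Levels and ratios use the deposited RPKM values, which were also recomputed from counts, length and that total. The deposited coverage is a percent of model length, per the file headers. Nearly all lengths are multiples of 3 (99.3%), so they are coding lengths. Cufflinks 2.0.1 appears, with no role, in the submitters' processing notes. No source used here gives an aligner or build. Descriptions come almost wholly from strain FP-101664 SS1 (99.7% of gene models), not the strain grown.

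Ratios used a pseudocount of 1 RPKM. Intervals are exact (Clopper-Pearson, 95%), from the counts with scipy 1.17.1, and describe counting error alone. Without molecular identifiers, PCR copies of 1 molecule count as several reads. The calculation was checked on simulated counts with counting error alone and large changes set in genes with enough reads. That check cannot show how much replicate cultures would differ. A gene missing from a table was given 0 reads. Precision followed depth, 2.68 to 2.85 M reads per library.

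Named members had at least 10 RPKM in a library and a call, or were the 3 of highest mean level in their role. Of each further list, up to 3 called genes and the gene of highest mean level were named. Other genes were named to account for every group and were chosen after their values were seen. The members and lists were chosen with earlier results of these data known.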

Additional observations from a re-analysis of the deposited data

How the results depend on the processing

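With 1 library per medium, no library could be left out. No paired analysis was possible because each medium had 1 library. Of 48 recomputed counts of called members 41 stayed within 1.5 times. The members' median log2 ratio ranged over the alternatives from −0.08 to 0.08 for poplar against glucose, with a change of sign without a minimum (−0.02), at a minimum of 10 RPKM (−0.08) and under median-of-ratios scaling (−0.04). It ranged from 0.12 to 0.23 for poplar against PDA and from 0.17 to 0.34 for glucose against PDA. With a pseudocount of 5 RPKM, 1 member was higher on poplar than on glucose and 1 lower on glucose than on PDA, Trave1_162398 lost both its calls, and Trave1_153470 its call on poplar against PDA. At a 1.5-fold threshold 5 were higher and 8 lower on poplar against glucose, 2 lower on poplar against PDA, and 15 higher and 7 lower on glucose against PDA. Median-of-ratios scaling lowered poplar ratios by 0.09 (log2) against glucose and 0.10 against PDA, where Trave1_153470 again lost its call. Leaving out, in each library, its member with most reads, the members took 0.390% of reads on PDA, 0.533% on glucose and 0.458% on poplar, and with members by description alone 0.430%, 0.555% and 0.495%.

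For the further lists, alternatives chosen after seeing the data were run, and 83 of 90 counts stayed within 1.5 times. With a pseudocount of 5, called peptidases numbered 19 on poplar against glucose and 15 on poplar against PDA, glutamine and glutamate enzymes 0 on glucose against PDA, and deaminating and transaminating enzymes 1. With a pseudocount of 0.1 the last were 4, and on poplar against PDA 1 glutamine and glutamate enzyme and 2 genes of urea, arginine and nucleobase breakdown were called. Members with few reads limit what can be seen: Trave1_141653, Trave1_27138 and Trave1_129812 had at most 10 reads in any library.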

Other observations

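The 1 gene model with the Gene Ontology process of amino acid transport that is not a member, Trave1_54302, is described as a clavaminate synthase-like protein, a name of oxygenases rather than carriers. It measured 1647 RPKM on PDA, 448 on glucose and 1812 on poplar, and was 4.04-fold higher on poplar than on glucose (3.80 to 4.29). It was singled out by its annotation, and its values were then read from the same libraries.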
